A study of Mus musculus with 6 samples.

Results

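The clustered protocadherin genes (Pcdh α, β and γ) were followed in eEnd2 cells, a mouse embryonic endothelial line, that expressed a human Integrin-β1 chimera. Members were taken by symbol, as every row named Pcdha, Pcdhb, Pcdhga, Pcdhgb, Pcdhgc or Pcdhac with a number, and 58 of the 23420 gene symbols in the table met this rule. They were 14 α genes (Pcdha1 to Pcdha12, Pcdhac1 and Pcdhac2), 22 β genes and 22 γ genes, of which 12 were of the A type, 7 of the B type and 3 of the C type. All 58 had a position on chromosome 18 of GRCm38 in RefSeq, where the α cluster runs from 36930285 to 37188897, the β cluster from 37264998 to 37521419 and the γ cluster from 37661775 to 37841873.

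Protocadherins are cell surface proteins of the cadherin superfamily, and the clustered ones are best known from neurons, where each cell transcribes its own combination of variable genes and uses it to tell its own branches from those of other cells. In the α and γ clusters every variable exon has a promoter of its own and is spliced to constant exons that all genes of the cluster share, whereas β genes stand alone without a constant region. The C-type genes at the end of the α and γ clusters are transcribed more uniformly from cell to cell than the other members, and promoter use in the clusters is known to depend on CTCF, cohesin and DNA methylation.

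RNA depleted of ribosomal RNA was sequenced from 6 cultures, 3 that expressed the wildtype chimera (β1-WT-GFP, here WT) and 3 that expressed its acetylation mimetic (β1-K794Q-GFP, here K794Q). The cultures of each group are named A, B and C, and where 3 values are given for a group they stand in this order. Both groups carried human Integrin-β1A with GFP in its extracellular part, driven from a short fragment of the human β-actin promoter, on top of their own mouse Integrin-β1. In the K794Q cells a glutamine stood in place of Lys794, which mimics an acetylated lysine, and the comparison asks what this exchange does to transcript levels. The cells of each construct were sorted for GFP and grown to confluence without further treatment, so the construct cannot be told apart from other differences between the sorted populations. The labels name a GFPlow and a GFPhigh population, and they do not say from which of them a culture came. The cultures of a group are separate dishes of sorted cells, so p values measure the spread between these dishes, which may be technical. The level of the human chimera was not analysed here.

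Depth ranged from 9589826 to 15287191 counts per culture. Levels are given as normalized counts, that is, counts scaled to library size by TMM (CPM). Where a gene had 0 counts, up to 3 counts are allowed for, which is 0.209 to 0.3 normalized counts depending on the culture. These limits, and the intervals below, cover counting error only. All 10 endothelial markers were tested and 0 passed the thresholds, where 5.19% of all tested genes did. Their summed levels were 8590 to 9500 normalized counts in WT and 7110 to 13800 in K794Q cultures. K794Q culture B held the 13800. Of the other cell types, the summed mesenchymal and the summed neuronal and glial markers were lower in all K794Q cultures, while blood markers overlapped. Only 1 mesenchymal gene and 1 neuronal or glial gene passed the filter on low counts. The 7 mesenchymal markers summed to 67.8 to 194 normalized counts in WT and 0.296 to 1.55 in K794Q cultures, mostly Prrx1, and 3 of the 7 were at 0 everywhere. The 10 neuronal and glial markers summed to 16.4, 21.8 and 281 in WT cultures and to 6.51 to 8.76 in K794Q cultures, mostly Stmn2 except in K794Q culture B, while 3 of the 10 (Syt1, Elavl4 and Sox10) were at 0 in all 6. Epithelial markers reached at most 0.592 normalized counts and blood markers summed to 31.0 to 103. The part of these markers in the protocadherin levels was not tested. In a bulk sample, fewer cells that express a gene and less RNA per cell cannot be told apart.

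Pairs of cultures were compared on log2 normalized counts with a small prior count added, which narrows gaps at low counts. Of all tested genes, 1.27% lay at least 2-fold apart between WT cultures A and B, 24.8% between A and C and 8.8% between K794Q cultures A and C. K794Q culture B differed from its sister cultures A and C in 18.3% and 23.3%. WT culture C and K794Q culture B thus stood apart from the other cultures of their groups, and many of the values that rest on them are also given without them.

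The eEnd2 cells transcribed the β and γ clusters and next to nothing of the α cluster. The 14 α genes together had 19 counts in all 6 cultures, 4, 0 and 3 in the WT and 5, 0 and 7 in the K794Q cultures. No α gene had more than 3 counts in any culture, and 5 of them had none anywhere. Pcdha8, Pcdha5 and Pcdha9 had the highest means of the cluster. Pcdha8 had 2 counts in WT culture A and 3 in culture C, Pcdha5 had 2 counts in each of K794Q cultures A and C, and Pcdha9 had 1 count in culture A of each group. Of the C-type genes, Pcdhac1 had 1 count, in K794Q culture C, and Pcdhac2 had 0 in every culture. Both groups were at or under the limit, so no fold change is given.

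Shared constant exons bear on the α and γ values. In GENCODE M21 each α gene shares 2860 to 2864 exonic bases with other α genes and each γ gene 2116 to 2119 bases with other γ genes. HTSeq in its usual settings sets aside a read that lies in exons of several genes, although the mode that was used is not given in the sources used here. The exons that only 1 gene holds among the members measure 2346 to 3028 bases in the 9 α genes that no further annotated gene overlaps, and 2499 to 3247 bases in the γ genes. In 8 of the γ genes another annotated gene overlaps part or all of these bases, with all 2613 of Pcdhga10 and 1381 of the 2637 of Pcdhga11. Reads there may be set aside too, so the counts of these 8 genes may be too low. If constant exon reads had been counted equally on every γ gene, they could make up no more than the lowest γ gene of a culture, which had 18 to 27 counts (0.424% to 0.735% of all γ counts), against a median γ gene of 37 to 68 counts. Counts of the low γ genes are thus bounded only loosely, and those of Pcdhgc3, at 1728 to 3018, closely. Some members are alike enough in sequence for short reads to be misplaced: leaving out the stretches of 50 bases that 10 or more members share (the constant exons), the median share of a gene's stretches found in a further member was 13.4% for α, 4.27% for β and 0.76% for γ genes, with 17.6% for Pcdhgb2, 16.6% for Pcdhgb1 and 11.3% for Pcdhb21.

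**Figure D1:**
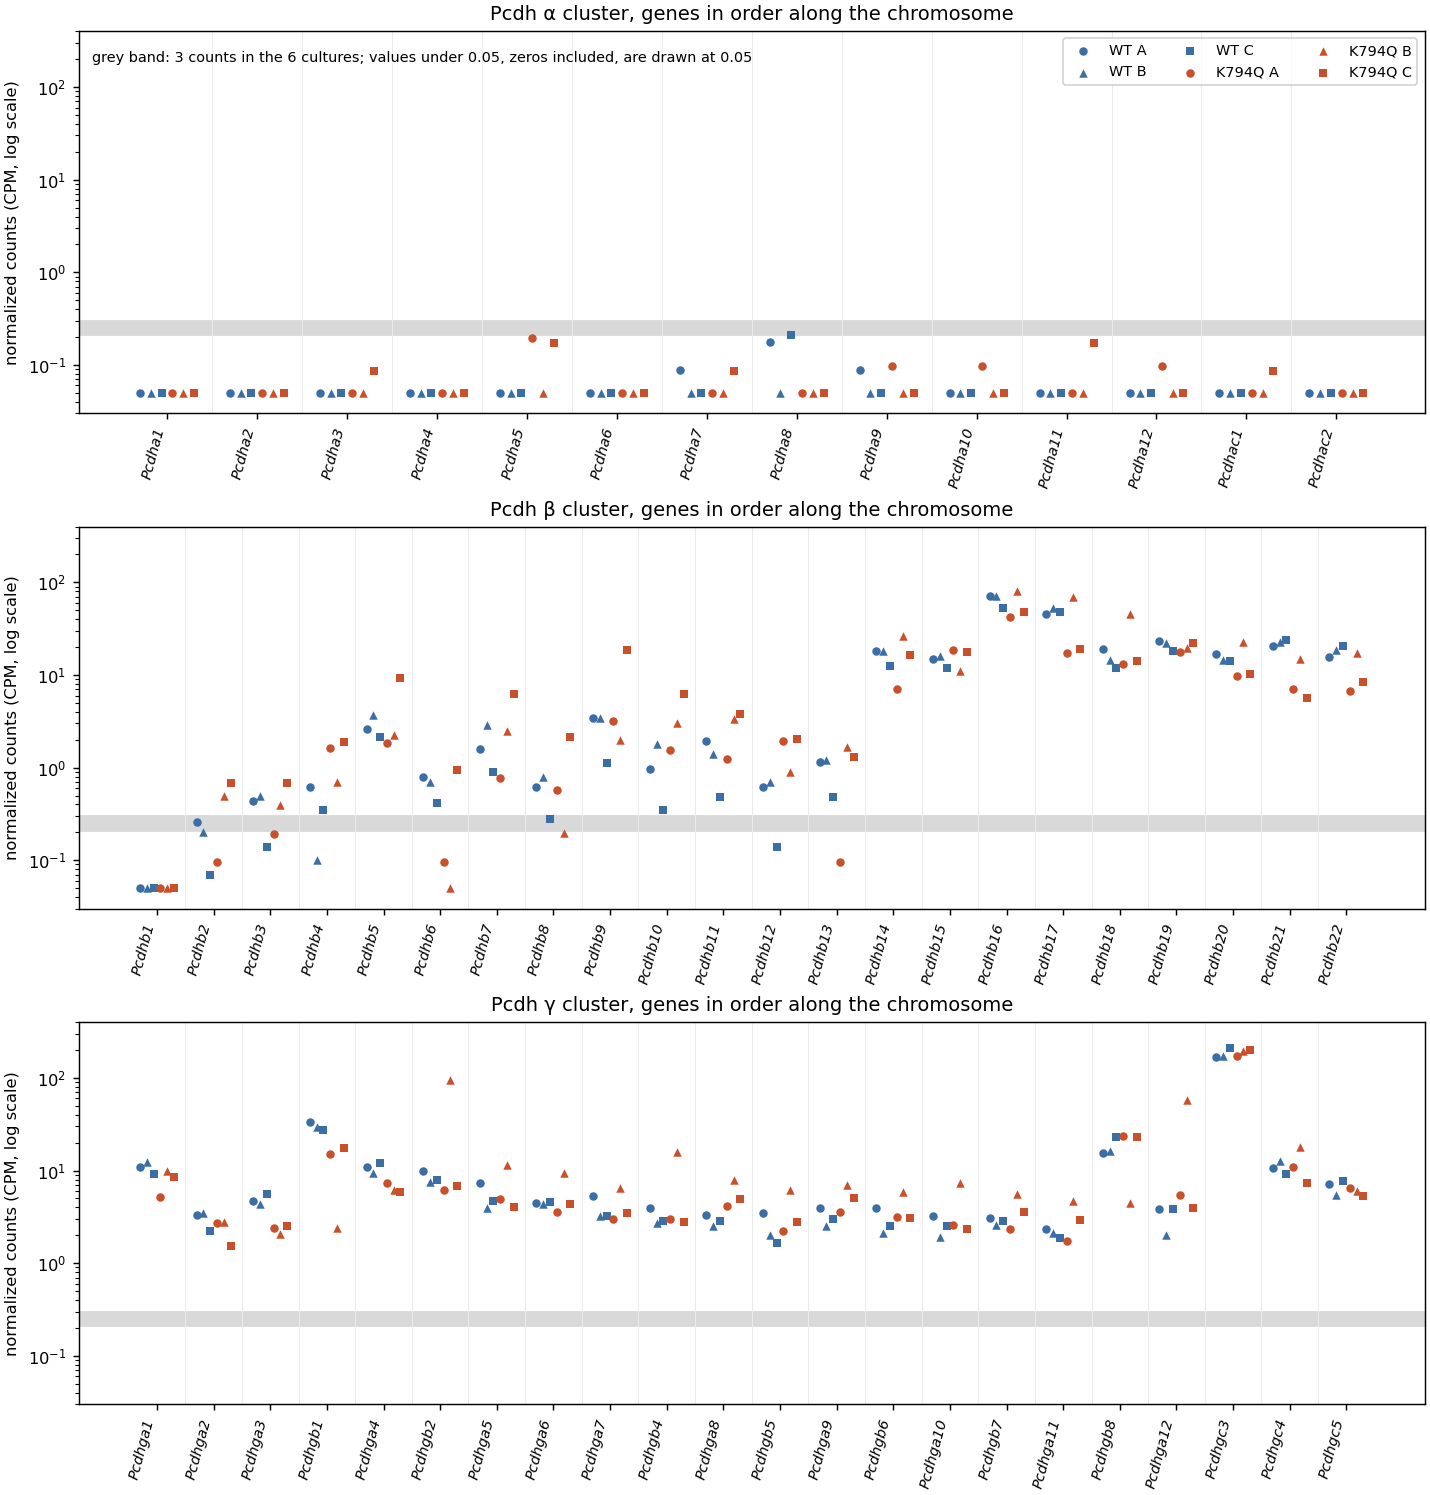
Normalized counts (CPM, log scale) of all 58 clustered protocadherin genes in each of the 6 cultures, with blue for WT, red for K794Q and a circle, triangle or square for culture A, B or C; the grey band is the level of 3 counts. No α point lies above the band, Pcdhgc3 lies at 167 to 210 in every culture, and K794Q culture B stands apart at Pcdhgb2 (95.2) and Pcdhga12 (57.1).

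Levels were compared between genes per kilobase of the sequence that belongs to the gene, as the mean over all 6 cultures. Pcdhgc3, a C-type γ gene, was by far the highest, with 72.6 normalized counts per kb. Next came Pcdhb17 with 12.9, Pcdhb16 with 11.6, Pcdhgb2 with 8.77, Pcdhgb1 with 7.98 and Pcdhgb8 with 7.05. The ranges of these 5 genes over the cultures overlapped with their neighbours in this order, and the place of Pcdhgb2 rested on a single culture. The place of Pcdhb17 above Pcdhb16 rested on the annotation. Its RefSeq span, used here, is 3270 bases, while its exons in GENCODE M21 measure 4660 bases. Above the level of 0 in all 6 cultures were 42 of the 58 members, and 37 passed the filter on low counts, namely all 22 γ genes, 15 β genes and no α gene.

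Of these 37 tested members, 3 passed both thresholds of the study (edgeR's quasi-likelihood test, fold change 2 or more with an unadjusted p up to 0.05), which is 8.11% against 5.19% of all 11608 tested genes. Pcdhga12 was the only member that rose, where 3.48% of all tested genes rose, and Pcdhb21 and Pcdhga3 fell, where 1.71% of all tested genes fell. With an adjusted p of at most 0.05 there was no member (0 of 37 in edgeR, the lowest being 0.293), against 0.181% of all tested genes, while 5 members had an unadjusted p of at most 0.05. DESeq2 and edgeR's likelihood ratio test also gave 0 members, with lowest adjusted p values of 0.0758 and 0.142 and 6 and 7 members at an unadjusted p of at most 0.05. All K794Q cultures lay above all WT cultures for 2 of the tested members, against 8.45% of all tested genes, and below them for 4 members, against 8.12%. The median log2 fold change of the tested members was 0.15 and that of all tested genes -0.02, and the median of its absolute size was 0.56 for the members and 0.26 for all tested genes.

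**Figure D2:**
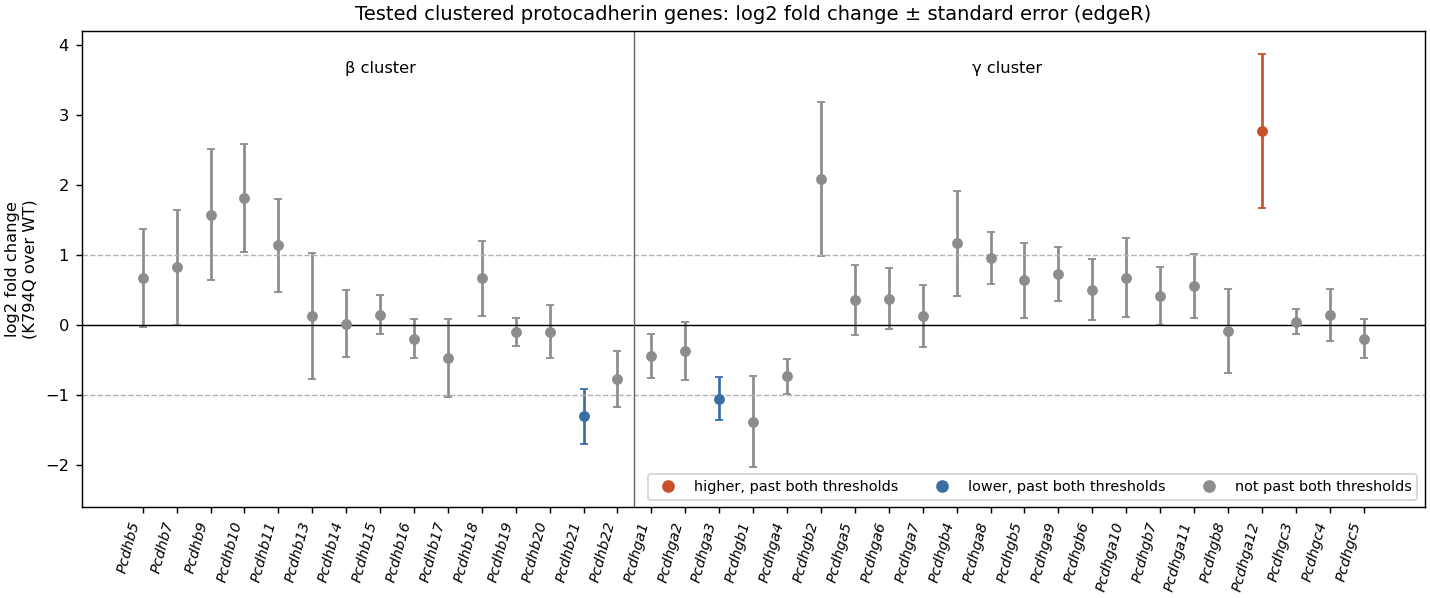
Log2 fold change of K794Q over WT cells with its SE (edgeR) for the 37 tested members in their order along the chromosome; dashed lines mark a 2-fold change. Pcdhga12 (2.77) is the only coloured point above 0 and Pcdhb21 (-1.30) and Pcdhga3 (-1.05) are the coloured points below it.

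The 3 C-type γ genes differed between the groups by less than the spread between cultures. Pcdhgc3 (chromosome 18, 37806410 to 37841873) had 167, 173 and 210 normalized counts in WT cultures, and 171, 197 and 200 in K794Q cultures. The groups overlapped, with means of 183 ± 23.4 and 189 ± 15.7 (SD, n = 3 each) and a log2 fold change of 0.05 (standard error, SE, 0.18, edgeR adjusted p = 0.968). Another annotated gene overlaps 1513 of the 2568 bases of its own exon. Pcdhgc4 had 10.6, 12.8 and 9.26 normalized counts in WT cultures and 11, 17.9 and 7.4 in K794Q cultures. Its log2 fold change was 0.15 (SE 0.37), and -0.24 without K794Q culture B. Pcdhgc5 had 7.09, 5.4 and 7.66 against 6.45, 6.02 and 5.25 normalized counts, a log2 fold change of -0.19 (SE 0.28). In sum, the C-type γ genes had 185, 191 and 227 normalized counts in WT cultures and 189, 221 and 212 in K794Q cultures, so the group ranges overlapped.

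The A and B genes of the γ cluster differed more between the K794Q cultures than between the groups. The 12 A genes summed to 63.4, 52.2 and 55.5 normalized counts in WT cultures and to 46.6, 133 and 49.6 in K794Q cultures. The 7 B genes summed to 73.2, 62.7 and 67.9 against 55.4, 135 and 59.7. For both types K794Q culture B was the highest of the 6, and K794Q cultures A and C were the lowest. Over the whole γ cluster the ratio of the mean of K794Q to that of WT cultures was 1.13, and it was 0.939 without K794Q culture B.

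**Figure D3:**
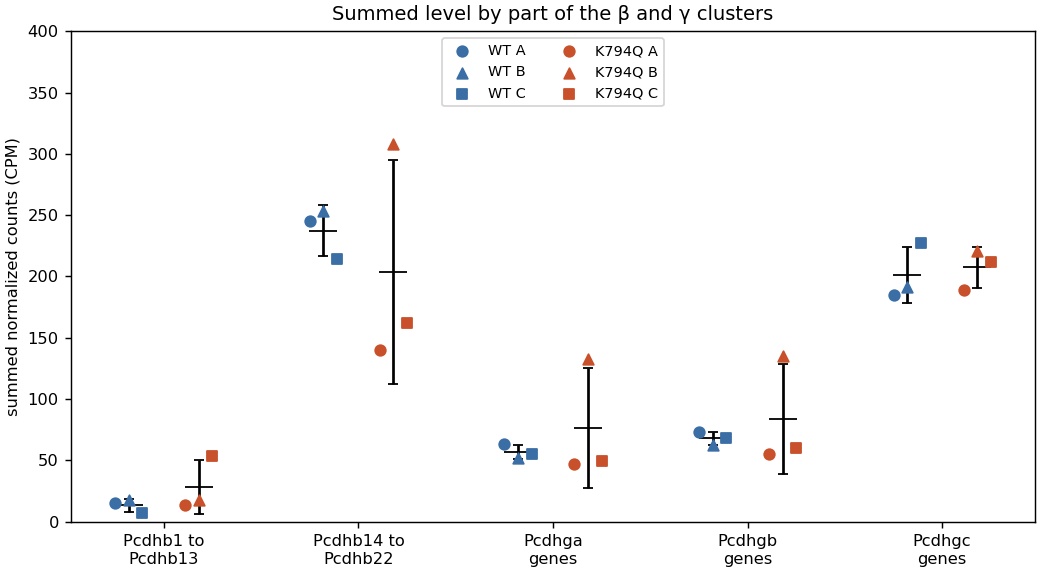
Summed normalized counts (CPM) of 5 parts of the β and γ clusters, each point a culture and each black bar with whiskers the mean ± SD of 3 cultures. K794Q culture B is the highest point for Pcdhga genes (133), Pcdhgb genes (135) and Pcdhb14 to Pcdhb22 (308), culture C is the highest for Pcdhb1 to Pcdhb13 (53.8), and the Pcdhgc genes lie between 185 and 227.

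Pcdhga12 and Pcdhgb2 had the largest positive log2 fold changes of the tested members. Pcdhga12 (chromosome 18, 37765580 to 37841873), the last A gene before the C-type genes, had 3.85, 2.0 and 3.83 normalized counts in WT cultures, and 5.39, 57.1 and 3.96 in K794Q cultures. The groups did not overlap, but K794Q culture C (3.96) lay just above WT culture A (3.85). Its log2 fold change of 2.77 (SE 1.10, unadjusted p = 0.0434, adjusted p = 0.463, edgeR) passed both thresholds, and it was 0.53 and not past them without K794Q culture B. It was past both thresholds in 2 of 6 leave-one-out fits, those without K794Q culture A or C. An annotated gene other than a member overlaps 422 of the 2961 bases of its own exon.

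Pcdhgb2 (chromosome 18, 37689859 to 37841872) had 9.88, 7.6 and 7.94 normalized counts in WT cultures, and 6.16, 95.2 and 6.88 in K794Q cultures. Culture B of the K794Q cells was thus 11.2 times the WT mean, whereas cultures A and C lay below every WT culture. The log2 fold change of 2.09 (SE 1.10, unadjusted p = 0.103, adjusted p = 0.619, edgeR) did not pass the thresholds and turned to -0.37 without K794Q culture B. The B gene Pcdhgb4 showed a smaller departure of the same culture, with 3.94, 2.7 and 2.86 in WT and 2.98, 15.7 and 2.75 in K794Q cultures. Its log2 fold change was 1.17 (SE 0.75), and -0.14 without culture B.

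Pcdhgb1 and Pcdhgb8 went the other way in the same culture. Pcdhgb1 (chromosome 18, 37680272 to 37841870) had 33.6, 29.5 and 27.2 normalized counts in WT cultures, and 14.9, 2.37 and 17.3 in K794Q cultures. All K794Q cultures lay below all WT cultures, and culture B was 0.0787 of the WT mean. The log2 fold change was -1.38 (SE 0.65, unadjusted p = 0.0768, adjusted p = 0.569, edgeR), and -0.90 without culture B. Pcdhgb8, annotated by RefSeq as a transcribed pseudogene, had 15.3, 16.2 and 22.8 normalized counts in WT and 23.6, 4.44 and 23.3 in K794Q cultures, so that cultures A and C lay just above the WT range and culture B below it. Its log2 fold change was -0.08 (SE 0.60), and 0.37 without culture B.

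Pcdhga3 (chromosome 18, 37674335 to 37841873) was lower in K794Q cells in every culture. It had 4.64, 4.3 and 5.57 normalized counts in WT cultures and 2.41, 2.07 and 2.49 in K794Q cultures. The K794Q cultures were close together, at 2.32 ± 0.222 against 4.84 ± 0.659 (SD, n = 3 each), and the groups did not overlap. The log2 fold change was -1.05 (SE 0.31, unadjusted p = 0.0133, adjusted p = 0.293, edgeR), and it stayed past both thresholds in 4 of 6 leave-one-out fits. Without K794Q culture B it was -0.98 and without WT culture C -0.93, which fell short of a 2-fold change. The neighbouring gene Pcdhga4 had 10.8, 9.4 and 12.0 against 7.41, 6.12 and 5.93 normalized counts, again without overlap, with a log2 fold change of -0.73 (SE 0.25). The groups of Pcdhga8 did not overlap either, with 3.32, 2.5 and 2.86 against 4.14, 7.9 and 4.9 normalized counts and a log2 fold change of 0.96 (SE 0.37), or 0.65 without K794Q culture B.

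By position, a split chosen after the values were seen and not tested, the 5 genes from Pcdhga1 to Pcdhga4 (Pcdhgb1 among them) all had negative log2 fold changes, from -1.38 to -0.37. They were negative too without each of the 3 K794Q cultures in turn and without WT culture C. These fits reuse the cultures that set the boundary, so they cannot test the split. Of all tested genes, 48.4% had positive log2 fold changes. The 14 A and B genes from Pcdhgb2 to Pcdhga12 had positive ones in 13 cases, with a median of 0.60, but in 8 of 14 without K794Q culture B, where the median was 0.07. Culture B of the K794Q cells had the highest value of the 6 cultures for 13 of the 19 A and B genes (68.4%), where it was highest for 21.9% of all tested genes. The summed level of the endothelial markers was also highest in this culture, and its part in the γ values was not tested.

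The composition of the A and B genes was compared apart from their summed level, as the share of each gene in their counts. Pcdhgb1 was the most counted of the 19 genes in all WT cultures, with 24.6%, 25.7% and 22.1% of their counts. In K794Q cultures A and C it took 14.6% (95% exact Clopper-Pearson interval 12.6 to 16.9) and 15.8% (13.8 to 17.9), and Pcdhgb8 was the most counted gene with 23.1% and 21.3%. In K794Q culture B, Pcdhgb2 took 35.5% (33.7 to 37.4) and Pcdhga12 21.3% (19.8 to 22.9), while Pcdhgb1 took 0.884% (0.567 to 1.31) and Pcdhgb8 1.66% (1.21 to 2.21). In the other 5 cultures Pcdhgb2 took between 6.04% and 7.23% and Pcdhga12 between 1.74% and 5.29%. The 2 most counted genes of K794Q culture B thus held more than 50% of its A and B counts, for which the other cultures needed 3 or 4 genes.

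**Figure D4:**
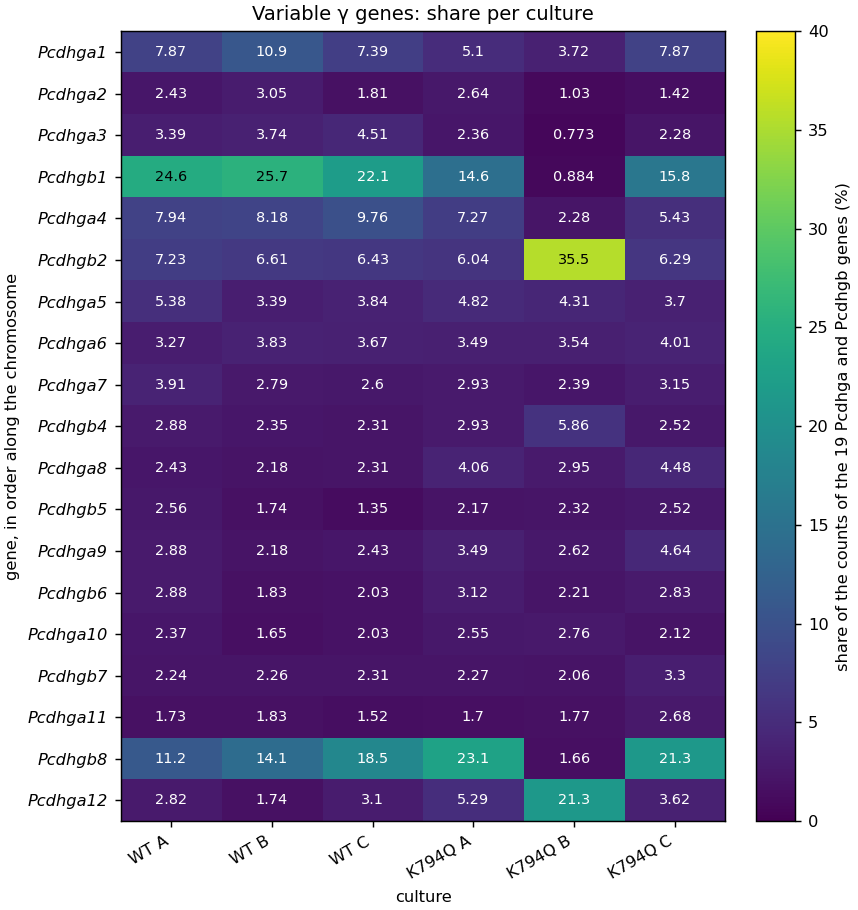
Share (%) of the counts of the 19 Pcdhga and Pcdhgb genes taken by each gene, in genomic order, in each culture. Pcdhgb1 is the brightest cell of the WT columns (22.1% to 25.7%), Pcdhgb8 that of K794Q A and C (23.1% and 21.3%), and Pcdhgb2 and Pcdhga12 those of K794Q B (35.5% and 21.3%).

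The β genes fell into a low and a high stretch along the chromosome. Summed over Pcdhb1 to Pcdhb13, a boundary chosen after the values were seen, the level was 15.0, 17.4 and 6.89 normalized counts in WT cultures and 13.2, 17.5 and 53.8 in K794Q cultures. Over Pcdhb14 to Pcdhb22 it was 245, 253 and 214 against 140, 308 and 162. The low stretch was highest in K794Q culture C, and the high stretch was highest in culture B and lowest in cultures A and C of the same cells. Over all β genes the ratio of K794Q to WT means was 0.924, and 0.736 without K794Q culture B.

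In the high stretch, Pcdhb21 (chromosome 18, 37513652 to 37516363) had 20.7, 22.9 and 24 normalized counts in WT cultures, and 7.03, 14.7 and 5.68 in K794Q cultures. All K794Q cultures lay below all WT cultures, with means of 9.14 ± 4.87 and 22.5 ± 1.64 (SD, n = 3 each). The log2 fold change of -1.30 (SE 0.39, unadjusted p = 0.0143, adjusted p = 0.299, edgeR) passed both thresholds, as it did in 5 of 6 leave-one-out fits, the exception being that without K794Q culture A (-1.15). Without culture B it was -1.82 with an adjusted p of 0.0428 in edgeR, where the adjusted p of all alternatives ranged from 0.0428 to 0.765. Pcdhb21 and Pcdhb22 share 455 bases in GENCODE M21. Pcdhb22 itself had 15.8, 18.7 and 20.7 against 6.64, 17.4 and 8.43 normalized counts, with overlap and a log2 fold change of -0.77 (SE 0.40), which was -1.28 and past both thresholds without K794Q culture B.

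Pcdhb16 was the most counted β gene in all 6 cultures. It had 70.7, 71.8 and 52.8 normalized counts in WT and 42.7, 80.1 and 48.0 in K794Q cultures, with a log2 fold change of -0.19 (SE 0.28). Pcdhb17, its neighbour, had 45.8, 53.5 and 47.8 against 17.3, 70.0 and 19.1. Cultures A and C of the K794Q cells were well below the WT range and culture B above it, so the log2 fold change was -0.47 (SE 0.56), and -1.42 with an adjusted p of 0.0404 in edgeR without culture B, where the adjusted p of all alternatives ranged from 0.0404 to 0.999. Pcdhb19 differed little, with 23.2, 22.3 and 18 against 17.5, 19.6 and 22.1 normalized counts and a log2 fold change of -0.10 (SE 0.20). Pcdhb18 had 46.0 normalized counts in K794Q culture B and 12.0 to 19.3 in the other 5 cultures, and its log2 fold change of 0.67 (SE 0.54) turned to -0.16 without culture B. The remaining genes of this stretch, Pcdhb14, Pcdhb15 and Pcdhb20, had log2 fold changes of 0.02, 0.15 and -0.09.

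In the low stretch, K794Q culture C had the highest value for 11 of the 12 genes from Pcdhb2 to Pcdhb13. Only 6 of these 12 were tested, and the others rest on few counts. Of all tested genes, a set without such low genes, this culture was highest for 16.7%. Pcdhb9 had 3.41, 3.4 and 1.11 normalized counts in WT cultures and 3.18, 1.97 and 18.4 in K794Q cultures. That culture was 6.97 times the WT mean, whereas cultures A and B lay within the WT range, and the log2 fold change of 1.58 (SE 0.94) was -0.03 without culture C. Pcdhb5 reached 9.37 normalized counts in culture C and 1.83 to 3.7 in the other 5 cultures. Pcdhb10 had 0.962, 1.8 and 0.348 against 1.54, 3.06 and 6.28, a log2 fold change of 1.82 (SE 0.77) that did not pass the thresholds (unadjusted p = 0.054, edgeR). The 6 tested genes of this stretch had positive log2 fold changes, from 0.13 to 1.82, but only 2 of 6 without K794Q culture C.

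Counted by pairs of cultures, with the prior count added, 0 of the 22 γ genes lay at least 2-fold apart between any pair of WT cultures or between K794Q cultures A and C. In plain normalized counts Pcdhgb5 (3.5 and 1.67) and Pcdhb13 (1.14 and 0.487) were more than 2-fold apart between WT cultures A and C, and the counts by pairs leave them out there. Between K794Q culture B and cultures A and C it was 12 and 10 of 22. The 15 tested β genes varied within both groups: 7 lay that far apart between K794Q cultures A and C. K794Q culture B was that far from A in 9 and from C in 8 of them, and WT culture C from A in 3 and from B in 5, whereas WT cultures A and B differed so in 0. Of all 37 tested members, 21 (56.8%) were at least 2-fold apart between K794Q cultures A and B, where 18.3% of all tested genes were. Against the mean of the WT cultures, 14 of 37 members (37.8%) were at least 2-fold higher in K794Q culture B, 5 (13.5%) in culture C and 0 in culture A, where 7.19%, 8.02% and 6.37% of all tested genes were. At least 2-fold lower were 9 members (24.3%) in culture A, 6 of them β genes, and 3 (8.11%) each in cultures B and C, where 6.79%, 11.4% and 6.83% of all tested genes were lower in A, B and C.

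Genes around the clusters served as a check on the level of the region. Within 5 Mb of the outer ends, 83 of 116 other genes were tested, and their median log2 ratio to the WT mean lay between -0.0626 and 0.0677 in every culture. Summed levels, which a few high genes can carry, differed between the sides. The 32 genes after the γ cluster, Pcdh1 and Pcdh12 among them, summed to 2250, 2250 and 1980 normalized counts in WT cultures. In K794Q cultures they summed to 2140, 3250 and 2090. Of the 3250 in culture B, Pcdh1 held 724 and Pcdh12 held 596 normalized counts. In WT cultures these genes had 121 to 219 and 60.2 to 175, so the higher sum in culture B is not shown for the other genes of this side. The 82 genes before the α cluster summed to 5160, 5330 and 6160 against 4590, 4920 and 4850. The part of this in the γ values was not tested. Of the 83 tested genes, 2 rose and 1 fell, where 3.48% of all tested genes rose and 1.71% fell. Fgf1, a growth factor gene, had 1.66, 0.9 and 1.74 normalized counts in WT cultures and 1.35, 16 and 11 in K794Q cultures (log2 fold change 2.7, SE 0.87). It passed in 3 of 6 leave-one-out fits, and not without WT culture A, WT culture B or K794Q culture B (2.10). Nrep was lower, with a log2 fold change of -1.16 (SE 0.41) that was -0.88 and not past the thresholds without K794Q culture B. Nrep passed in 2 of 6 leave-one-out fits. Pcdh1 was higher. Between the β and γ clusters lie Slc25a2 and Taf7, a subunit of the general transcription factor TFIID, and neither passed the thresholds. Taf7 had 20.6, 23.3 and 28.3 against 14.8, 15.1 and 25.0 normalized counts.

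**Figure D5:**
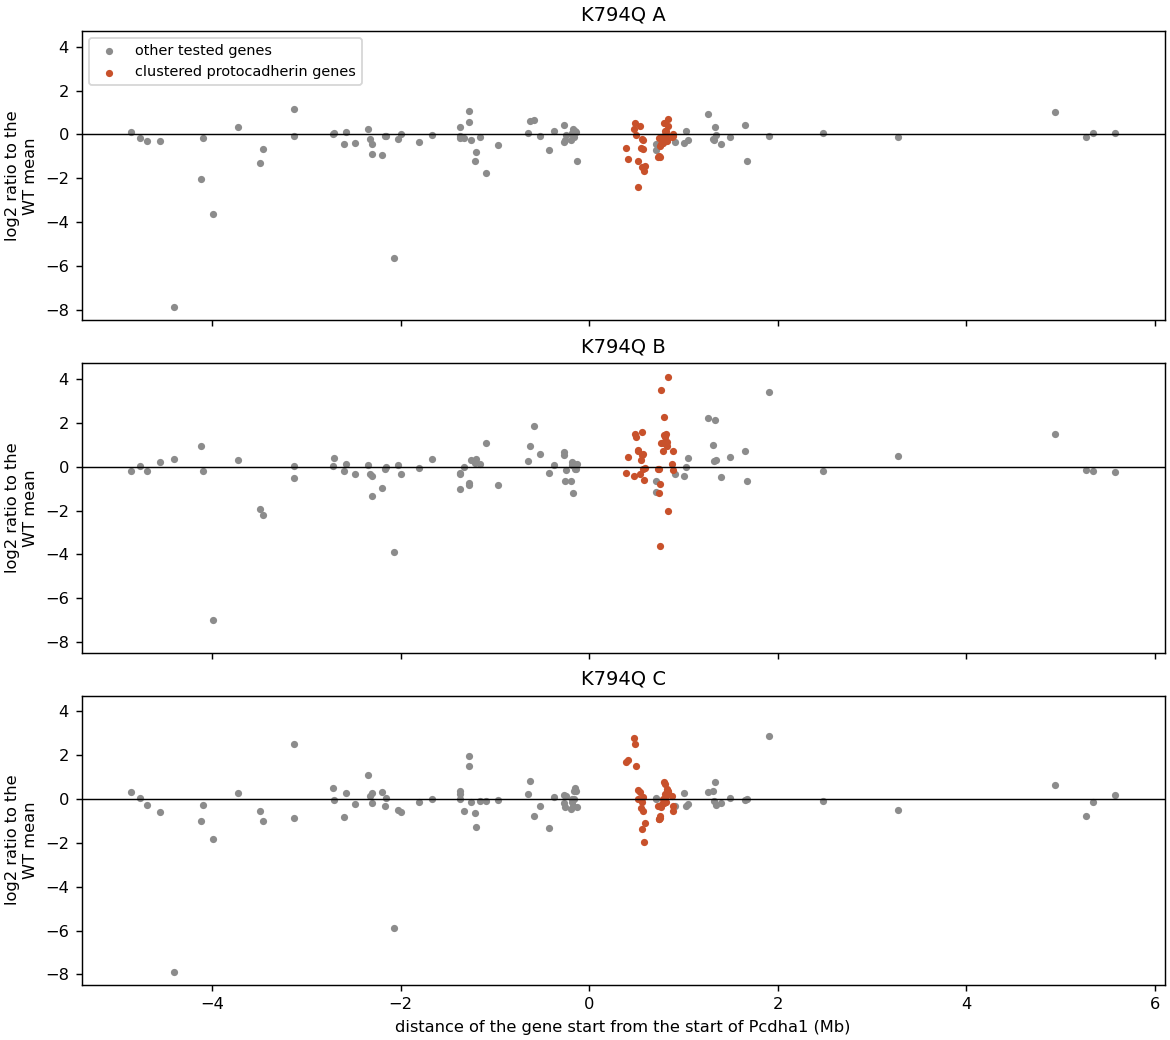
Log2 ratio of each K794Q culture to the mean of the WT cultures (0.1 normalized counts added to both) for tested genes against the distance of their start from that of Pcdha1 in Mb, with members in red and other genes in grey. Most grey points lie near 0 on both sides of the clusters in all 3 panels, with single genes far lower or far higher. Fgf1 and Pcdh1 are among the higher ones in culture B. The members spread widest in culture B, from 0.0787 to 17.7 times the WT mean.

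Of 12 listed protocadherin genes outside the clusters, 6 were tested and 3 rose (Pcdh1, Pcdh17 and Pcdh19), where 3.48% of all tested genes did, and 0 fell. Pcdh19, best known as an epilepsy gene in humans, had 19.9, 21.3 and 21.1 normalized counts in WT cultures, and 49.0, 88.2 and 51.1 in K794Q cultures. The groups did not overlap, and the log2 fold change was 1.59 (SE 0.27, unadjusted p = 0.000876, adjusted p = 0.103, edgeR). Pcdh17 had 148, 142 and 88.4 against 589, 132 and 417, so that culture B stayed at the WT level (log2 fold change 1.59, SE 0.55, and 2.00 without culture B). It did not pass the thresholds without WT culture C (1.40). Pcdh1 had 121, 134 and 219 against 299, 724 and 197 (log2 fold change 1.37, SE 0.53), and it was 0.65 and not past the thresholds without K794Q culture B. Pcdh12, also known as VE-cadherin-2 and found in endothelial cells, had 169, 175 and 60.2 against 170, 596 and 227 normalized counts and did not pass the thresholds (log2 fold change 1.29, SE 0.61, and 0.57 without K794Q culture B). Of the 3 genes that rose, Pcdh19 passed in 6 of 6 leave-one-out fits, Pcdh1 in 3 and Pcdh17 in 1.

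Genes for proteins that shape or silence the clusters were listed from general knowledge. Of 26 (CTCF, cohesin and its loaders, DNA methyltransferases, TET enzymes and histone methylation factors), all were tested, 0 rose and 1 fell. Of all tested genes, 3.48% rose and 1.71% fell. Ctcf had 101, 101 and 98.0 normalized counts in WT and 111, 101 and 108 in K794Q cultures (log2 fold change 0.09, SE 0.14). Tet1, an enzyme that oxidizes methylated cytosine, passed both thresholds, with 7.79, 6.9 and 6.82 against 0, 1.28 and 0 normalized counts and no overlap. Its log2 fold change was -4.06 (SE 1.32, unadjusted p = 0.0201, adjusted p = 0.351, edgeR). Of 22 listed partners and proteases of the cytoplasmic domains, 19 were tested, 0 rose and 1 fell. It was Psen2, a catalytic subunit of γ-secretase, with 29.3, 25.9 and 9.4 against 6.84, 4.34 and 12.1 normalized counts (log2 fold change -1.47, SE 0.55). The groups overlapped, and it passed in 2 of 6 leave-one-out fits, with -1.17 and no call without K794Q culture B.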

How the data were processed

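Raw read counts per mouse gene symbol were deposited by the authors without normalization, in 1 table with a column for each of the 6 cultures. Per the labels, the processing notes name bcl2fastq 2.20.0, STAR 2.7.4a, HTSeq 0.9.1, edgeR 3.38.4 and the build mm10 (GRCm38). The counting mode, strand setting and annotation are not given in the sources used here, and without strand a gene and its antisense partner cannot be told apart.

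Counts were fitted with edgeR 4.0.16 in R 4.3.3 (filterByExpr, TMM, glmQLFit and glmQLFTest, two-sided, 11608 genes, common dispersion 0.186), with Benjamini-Hochberg adjustment over all tested genes. The standard error is the log2 fold change divided by the square root of F. The fit was first tested on simulated counts. Alternatives were other filters, RLE, the likelihood ratio test, DESeq2 1.42.0, the culture letter as a block, an offset by flanking genes and leaving out each culture. Deviations of same-letter cultures correlated at 0.0947, 0.0548 and 0.0952, and those of different-letter cultures at -0.152 to 0.0954. Letters were not taken as pairs in the main fit, although these values do not settle whether they are.

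Positions came from RefSeq (GRCm38.p6) and shared exons from GENCODE M21. Level per kilobase used the exons no other member holds (α, γ) or the RefSeq span (β). Wapl was matched as Wapal. Figures used matplotlib 3.10.9 under Python 3.11.15.

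Members and lists were chosen with earlier results of these data known. Named genes were those past both thresholds, the 3 highest of each cluster, the C-type genes, listed context genes past both thresholds and Ctcf. Further members and genes (Pcdhga4, Pcdhga8, Pcdhga10, Pcdhga11, Pcdhgb4, Pcdhgb5, Pcdhgb8, Pcdhb4, Pcdhb5, Pcdhb9, Pcdhb10, Pcdhb12, Pcdhb13, Pcdhb14, Pcdhb15, Pcdhb18, Pcdhb20, Pcdhb22, Pcdh12, Taf7 and Slc25a2) were named after their values were seen. Neither a second sequencing run of the samples nor the other assays of the study were analysed.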

Additional observations from a re-analysis of the deposited data

How the results depend on the processing

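The 3 members past both thresholds became 6 with edgeR's likelihood ratio test (Pcdhb10, Pcdhgb1 and Pcdhgb2 in addition). Leaving out a culture gave 1 to 5 members, namely 1 without WT culture C (Pcdhb21), 5 without K794Q culture A and 5 without K794Q culture B (Pcdhb4, Pcdhb12, Pcdhb17, Pcdhb21 and Pcdhb22). Over all tested genes the count of 603 was 916 without a filter on low counts, and 501 to 992 with a culture left out, 992 without WT culture C and 942 without K794Q culture B. With the culture letter as a replicate block, 571 genes and 2 members passed (Pcdhb21 and Pcdhga3), and Pcdhga12, at 1.57, did not. Whether the letters mark pairs of cultures is not known. DESeq2 called 4 members (Pcdhb10, Pcdhb21, Pcdhga3 and Pcdhgb1) and gave no p for 2 (Pcdhgb2 and Pcdhga12). The offset by flanking genes left 3, with Pcdhga8 (1.01) in place of Pcdhga3 (-1.0). With a culture left out, log2 fold changes ranged from -0.37 to 2.58 for Pcdhgb2, from -0.02 to 0.17 for Pcdhgc3, from -0.24 to 0.41 for Pcdhgc4, and from 0.53 to 3.27 for Pcdhga12. The cause of these changes was not tested. The summed ratios ranged from 0.736 to 1.08 (β) and from 0.939 to 1.24 (γ). The 14 α genes and 7 β genes fell under the filter on low counts and were not tested.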

Other observations

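Among the 7 β genes under the filter on low counts, Pcdhb4 and Pcdhb12 had all K794Q cultures above all WT cultures. Of all tested genes, 8.45% did. Both were picked after their values were seen and rest on few counts. Pcdhb4 had 7, 1 and 5 counts in WT and 17, 7 and 22 in K794Q cultures, and Pcdhb12 had 7, 7 and 2 against 20, 9 and 24. Pcdhb4 had 0.612, 0.1 and 0.348 normalized counts in WT cultures and 1.64, 0.691 and 1.89 in K794Q cultures. Pcdhb12 had 0.612, 0.7 and 0.139 against 1.93, 0.888 and 2.06 normalized counts. An annotated gene other than a member overlaps 1927 of the 3034 bases of Pcdhb12. Pcdhb6 went from 0.787, 0.7 and 0.418 normalized counts in WT to 0.0963, 0 and 0.946 in K794Q cultures, so that culture C alone kept to the WT level. Pcdhb1, the gene nearest to the α cluster, had 0 counts in all 6 cultures.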
